A study of Mus musculus with 6 samples.

Results

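The 8 complement genes C1qa, C1qb, C1qc, C3, C3ar1, C5ar1, Cfb and Cfp were followed through the myeloid and tumor cells of a mouse ovarian cancer experiment. They were taken by symbol from the 32285 genes counted, and all 8 were found. Their unique molecular identifiers (UMIs, each standing for 1 captured RNA molecule) were summed per library over macrophages, monocytes, dendritic cells, neutrophils and tumor cells. These classes were gated cell by cell on marker genes, none of them a complement gene, and together held 26539 of the 51633 cells kept. Sums are given as CPM, a gene's UMIs per 1000000 UMIs of the same class in the same library.

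Single cells were sequenced with the 10x 3' method from 6 libraries, 1 mouse each. The study's methods describe orthotopic tumors formed by KPCA, a mouse ovarian cancer line that is proficient in homologous recombination, with altered Trp53 and overexpressed Ccne1 and Akt2, injected into the ovarian bursa of female C57BL/6 mice aged 6 to 8 weeks. The tissue named in the labels is lymph node instead, and the description of the series mentions young as well as aged mice, so the groups rest on the treatment labels, which both sources share. All mice carried tumor cells and were killed on day 30. The control mouse received solvent and rat IgG. The 2DG mouse received 2-deoxy-D-glucose, a glucose analog that also enters N-glycan synthesis, by injection every 2 days from day 9. The 2FF mouse received the fucosylation inhibitor 2F-peracetyl-fucose by gavage every 2 days, and its tumor cells had been kept in 2FF for 3 days before injection. The anti-PD-L1 mouse was injected with an antibody that blocks PD-L1, the ligand of the T cell checkpoint PD-1, 2 times a week for 3 weeks after day 9. The remaining mice received 2DG plus anti-PD-L1 or 2FF plus anti-PD-L1. The same control and anti-PD-L1 libraries serve the 2DG and the 2FF comparisons.

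Complement is a cascade of plasma proteins that tags cells and debris for uptake and calls in leukocytes. C1q, a molecule of A, B and C chains encoded by C1qa, C1qb and C1qc, opens the classical pathway by binding antibody or dying cells. C3 is the protein on which all routes converge, factor B (Cfb) forms the alternative pathway convertase with it, and properdin (Cfp) stabilizes that convertase. C3ar1 and C5ar1 encode the receptors for the released peptides C3a and C5a. Most plasma complement comes from the liver, whereas C1q and properdin are made largely by myeloid cells, and C1q is a well-known product of tissue and tumor macrophages.

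C1qa (ENSMUSG00000036887, 136895917 to 136898803), C1qc (136889804 to 136893065) and C1qb (136880129 to 136886187) lie side by side on the minus strand of chromosome 4 of GRCm38. C3 (17:57203970-57228136), Cfb (17:34856374-34862518), C3ar1 (6:122847138-122856161), C5ar1 (7:16246743-16259540) and Cfp (X:20925454-20931555) are also on the minus strand, and all 8 are protein coding. Cfb is overlapped on its own strand by a further annotated gene, Gm20547, which is not among the genes counted, so reads of both cannot be told apart. Promoter sequences, from 250 bases before to 50 after the RefSeq start (GRCm38.p6), were matched for C1qb, C1qc, C3, C3ar1, C5ar1 and Cfp. Shown 5' to 3' are those of C1qb and C1qc, neighbours whose levels moved together, and that of C3, whose order among the cell classes was different. Capitals mark the core motif of the ETS factor PU.1 in C1qb (read forward) and C1qc (read on the other strand), and a C/EBP motif in C3.
C1qb (4:136886151-136886450, minus strand): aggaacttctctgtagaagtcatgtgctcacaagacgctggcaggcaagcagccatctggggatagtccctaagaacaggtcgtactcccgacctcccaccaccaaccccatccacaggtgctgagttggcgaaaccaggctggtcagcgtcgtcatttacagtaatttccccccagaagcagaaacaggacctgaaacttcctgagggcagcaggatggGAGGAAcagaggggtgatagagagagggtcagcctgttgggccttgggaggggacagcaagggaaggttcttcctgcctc
C1qc (4:136892865-136893164, minus strand): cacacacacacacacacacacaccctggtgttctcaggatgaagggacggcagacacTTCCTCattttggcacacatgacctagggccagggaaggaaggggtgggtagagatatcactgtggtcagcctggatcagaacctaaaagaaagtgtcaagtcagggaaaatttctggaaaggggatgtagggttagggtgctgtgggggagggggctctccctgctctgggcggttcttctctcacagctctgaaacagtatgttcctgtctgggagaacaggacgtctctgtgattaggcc
C3 (17:57228087-57228386, minus strand): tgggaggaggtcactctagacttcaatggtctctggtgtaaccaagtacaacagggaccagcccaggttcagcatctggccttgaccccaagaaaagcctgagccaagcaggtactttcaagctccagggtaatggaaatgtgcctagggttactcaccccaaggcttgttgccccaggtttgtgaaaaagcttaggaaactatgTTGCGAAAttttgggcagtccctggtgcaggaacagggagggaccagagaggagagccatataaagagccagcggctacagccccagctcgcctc

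On both strands of these windows, the PU.1 core GAGGAA was found in C1qb (at -30 from the start), C1qc (at -193) and Cfp (at 6 and 22), and 28.3% of all 32851 RefSeq promoters hold it. The C/EBP motif TTGCNNAA was found in C3 (at -45) and in 10.8% of all promoters. Neither the interferon-stimulated response element (3.44% of promoters) nor the gamma-activated site TTCNNNGAA (8.30%) was found in the 6 windows, and those of C3ar1 and C5ar1 held no match to any of the 4 motifs. These are letter matches and not shown binding sites.

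Each library held 61859753 to 73885214 UMIs, with 7703 to 9222 cells kept and a median of 6196 to 7732 UMIs per cell, and any pair of libraries shared 16 to 34 cell barcodes. Per library there were 575 to 1081 macrophages, 1557 to 3042 monocytes, 300 to 515 dendritic cells, 279 to 3373 neutrophils and 0 to 16 tumor cells. The control library stood apart, with 3373 neutrophils (37.2% of its cells) against 279 to 522 in the others. The classes carried genes outside the gate that fit their names. Lyz2, the lysozyme of phagocytes, was at 2296 to 4162 CPM in macrophages and 2926 to 6376 in monocytes against 124 to 345 in dendritic cells, and H2-Aa, a chain of MHC class II, was at 4182 to 5360 CPM in dendritic cells, overlapping macrophages at 2247 to 4365 CPM and above monocytes at 353 to 1819. T cells (389 to 3025 per library), which should lack most of these genes, served as the background from free RNA and mixed droplets. Their median depth was 5817 to 7620.5 UMIs per cell, against 10086 to 13725 in macrophages, 6608 to 10297 in monocytes, 8765 to 13836 in dendritic cells and 2554 to 3801 in neutrophils.

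**Figure D1:**
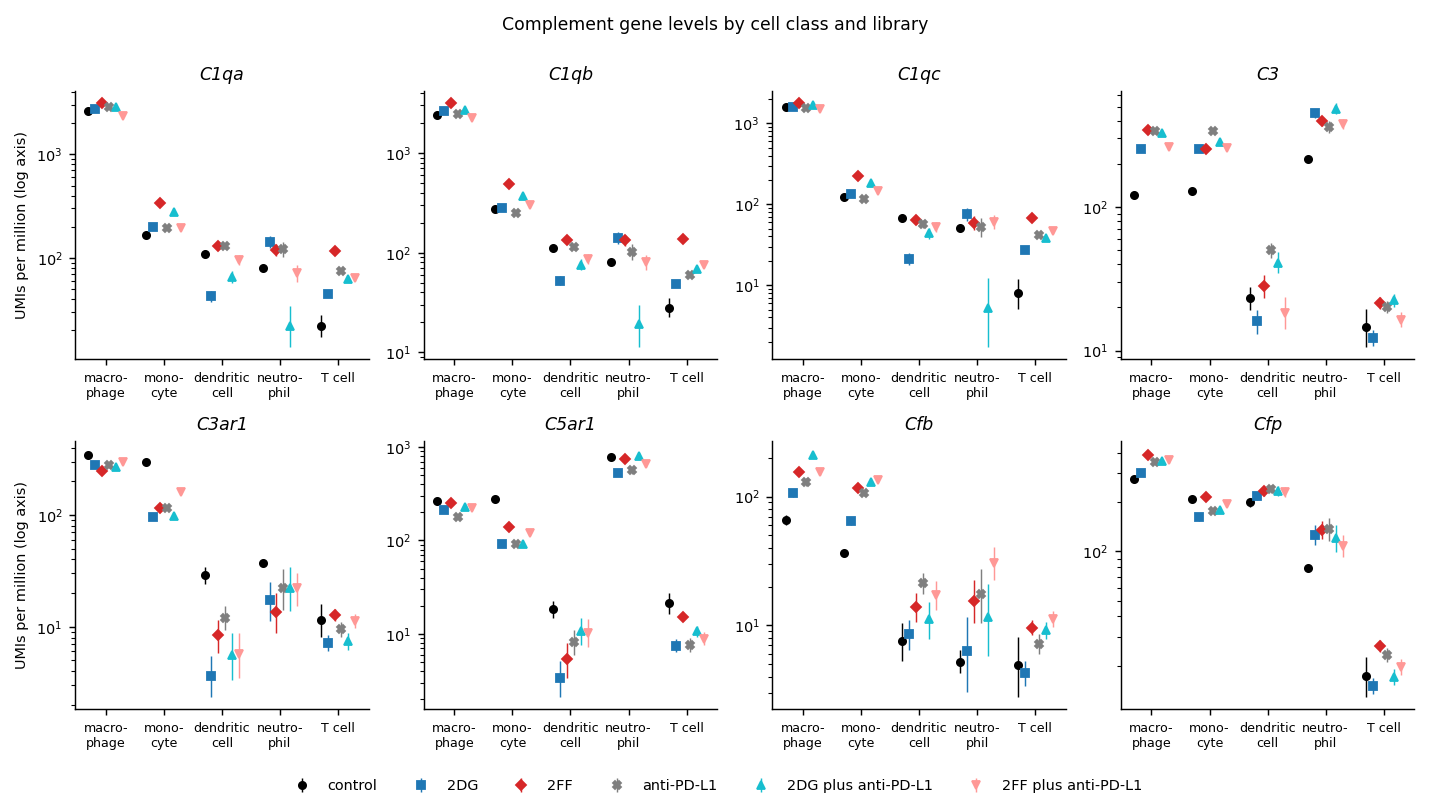
CPM of the 8 genes (panels, log axis) by cell class, 1 point for each of the 6 libraries with exact Poisson 95% counting intervals. C1q genes peak in macrophages, C5ar1 in neutrophils, and T cells give the background, for example 22.2 to 117 CPM for C1qa.

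C1q was a macrophage product in these libraries. C1qa was at 2333 to 3106 CPM in macrophages (median 2802), C1qb at 2263 to 3149 (median 2566) and C1qc at 1516 to 1766 (median 1596). In monocytes the medians were 196, 291 and 139 CPM, and the macrophage and monocyte ranges did not overlap for any of the 3 genes. Dendritic cells and neutrophils had medians of 102 and 99.8 CPM for C1qa, with ranges that overlapped each other and those of T cells (median 63.0 CPM). In each library, C1qa in macrophages was 26.5 to 118 times its T cell level, and in monocytes 2.58 to 7.51 times. Dendritic cells exceeded T cells in C1qa in 5 of 6 libraries, in 3 of them with counting intervals apart, and neutrophils likewise in 5 and 3.

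The difference between classes was tested with edgeR's quasi-likelihood test on the summed UMIs, with the library as a block and Benjamini-Hochberg adjustment over 12969 genes. Differences are log2 fold changes against macrophages with approximate standard errors (SE). Each SE, here and for anti-PD-L1 below, is the absolute log2 fold change over the square root of edgeR's F statistic. In monocytes C1qa was lower by a log2 fold change of -3.45 (SE 0.28, edgeR adjusted p = 4.25e-09), C1qb by -2.86 and C1qc by -3.26. In dendritic cells the values were -4.94, -4.85 and -5.07, and in neutrophils -4.43, -4.35 and -4.49, all past the threshold of 0.05. Classes differ in very many genes, so these calls are not rare: 50.4% of genes passed in monocytes, 54.9% in dendritic cells and 74.1% in neutrophils. Without TMM scaling, the adjustment of library totals by edgeR, the genes called higher and lower went from 3150 and 3385 to 2181 and 4678 in monocytes and from 4438 and 5167 to 2973 and 7221 in neutrophils, while each of the 8 genes that had been called kept its direction and its call. The 6 mice had different treatments, and the p-values measure the spread of class differences over them.

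A UMI of C1qa was found in 83.4% of macrophages (median over libraries), of C1qb in 86.4% and of C1qc in 84.0%, against 6.87% of T cells for C1qa. With each macrophage thinned to 1000 UMIs the shares were 71.0%, 74.5% and 63.8%. All 3 chains were seen together in 74.4% to 83.1% of macrophages, but in 9.60% to 15.1% of monocytes, 2.67% to 7.04% of dendritic cells, 0.358% to 2.61% of neutrophils and 1.03% to 2.84% of T cells. Macrophages held a median of 66.3% of the C1qa UMIs of a library.

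Monocytes carried C1q in step with macrophage markers. Of the 14310 monocytes, 1261 had no UMI of the 6 macrophage gate markers (among them Adgre1, Mrc1, Ms4a7, Trem2 and Gpnmb), 5077 had 1 of them and 7972 had 2 or more. C1qa had median levels of 33.3, 86.8 and 296 CPM in these cells, C1qb 48.7, 141 and 418, and C1qc 12.9, 58.9 and 207. By these medians the monocytes without a macrophage marker lay below the T cells (63.0 CPM) for C1qa. In the control library the order was the reverse, at 34.2 CPM against 22.2 in T cells. Classical monocytes (Ly6c2, Ccr2 and related markers) had 169 to 368 CPM of C1qa and non-classical monocytes 11.6 to 172. The part of macrophage RNA in mixed droplets was not tested.

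The 3 chains also came in a different ratio in monocytes, a comparison chosen after the values were seen. C1qb UMIs per C1qa UMI numbered 0.865 to 1.01 in macrophages (median 0.958) and 1.31 to 1.65 in monocytes (median 1.43), and these ranges did not overlap. Monocytes with no macrophage marker had a median ratio of 1.46, those with 1 marker 1.92 and those with 2 or more 1.37. T cells, the background class, had 0.803 to 1.27. C1qc UMIs per C1qa UMI were 0.549 to 0.650 in macrophages and 0.610 to 0.745 in monocytes, which overlapped. Within every library the monocyte value was the higher, as in control (0.742 against 0.610) and with anti-PD-L1 (0.610 against 0.549). T cells had 0.358 to 0.744 for this ratio.

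**Figure D2:**
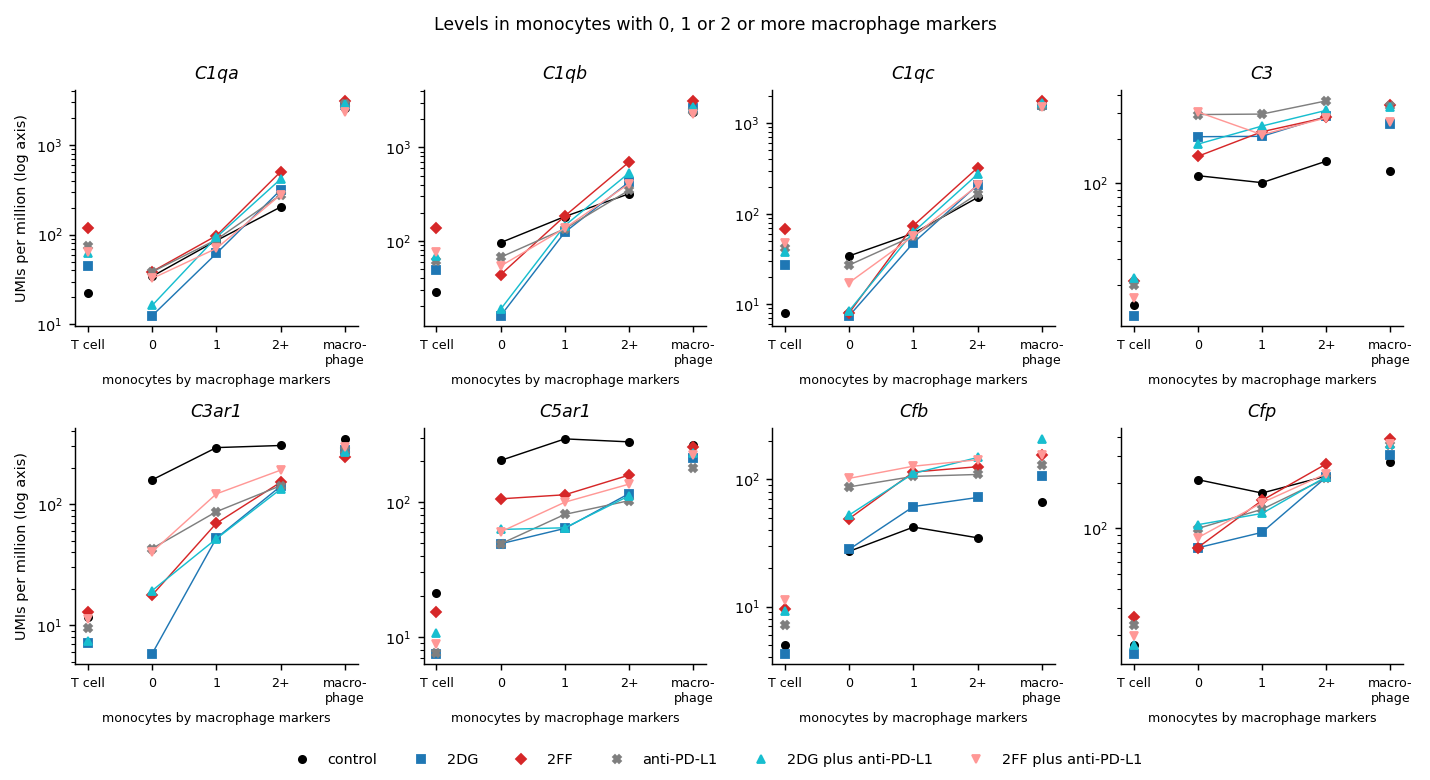
CPM of the 8 genes in monocytes with 0, 1 and 2 or more of the 6 macrophage markers, 1 point per library (log axis), with T cells and macrophages on either side. The C1q genes rise with the number of markers (C1qa medians 33.3, 86.8 and 296), while C3 changes less (196, 219 and 283).

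C3 was carried by neutrophils, macrophages and monocytes alike. It was at 217 to 485 CPM in neutrophils (median 386), 122 to 343 in macrophages (median 295) and 130 to 336 in monocytes (median 257). Neutrophils had more than macrophages in 6 of 6 libraries, although the ranges overlapped, and macrophages more than monocytes in 4 of 6. Dendritic cells, at 16.0 to 50.1 CPM (median 25.7), lay next to T cells (12.3 to 22.4). They exceeded the T cells of the same library in 6 of 6, at 1.12 to 2.49 times, with counting intervals apart in 2. Against macrophages C3 was higher in neutrophils (log2 fold change 0.99, SE 0.17, edgeR adjusted p = 3.03e-05) and lower in dendritic cells (-3.26), and in monocytes the value was 0.04 (SE 0.17, edgeR adjusted p = 0.856), or -0.10 without TMM scaling, and was not called. With totals in place of TMM scaling, under which the median of all genes in neutrophils was -0.64 rather than -0.13, the neutrophil value was 0.52 (edgeR adjusted p = 0.00746). Of all C3 UMIs of a library, a median of 42.5% were in monocytes. The control neutrophils, being many, held 39.9% of the C3 UMIs of their library.

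Among the 4 myeloid classes, factor B was highest in macrophages and monocytes. Cfb was at 65.9 to 208 CPM in macrophages (median 142) and 36.4 to 135 in monocytes (median 111), with macrophages the higher in 6 of 6 libraries. Dendritic cells (7.59 to 21.4 CPM) and neutrophils (5.25 to 30.5) were near the T cells (4.26 to 11.3). Within libraries both exceeded T cells in 6 of 6, at 1.21 to 2.96 and 1.06 to 2.70 times, with counting intervals apart in 3 and 2. The monocyte value was -0.39 (SE 0.15, edgeR adjusted p = 0.0373), a call lost with DESeq2 (-0.41, adjusted p = 0.0537) and when edgeR was run without the 2DG (-0.34, adjusted p = 0.118), 2FF (-0.41, adjusted p = 0.0792) or 2DG plus anti-PD-L1 library (-0.34, adjusted p = 0.0698). In dendritic cells and neutrophils Cfb was lower at -3.40 and -2.81. A median of 52.5% of macrophages had a Cfb UMI, or 12.2% after thinning to 1000 UMIs.

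Properdin was found in all 4 myeloid classes. Cfp was at 274 to 386 CPM in macrophages (median 354), 198 to 239 in dendritic cells (median 231), 161 to 216 in monocytes (median 187) and 78.5 to 136 in neutrophils (median 123), each class above T cells (15.1 to 26.4) in 6 of 6 libraries with counting intervals apart. Against macrophages it was lower in dendritic cells (-0.63, edgeR adjusted p = 9.95e-06), monocytes (-0.67, adjusted p = 7.87e-06) and neutrophils (-1.07, adjusted p = 4.82e-09). Within dendritic cells, type 2 cells had 330 to 443 CPM (median 422), type 1 cells 104 to 249 (median 201), mature cells 33.5 to 65.7 (median 56.8) and plasmacytoid cells, with 6 to 39 cells a library, 58.5 to 190. The type 2 range did not overlap that of the type 1 or the mature cells. Type 1 cells had more C1qa than type 2 cells, at 76.8 to 216 CPM against 14.8 to 57.2. Mature cells (17.4 to 144 CPM), plasmacytoid cells (0 to 653) and the background of T cells (22.2 to 117) overlapped both.

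The anaphylatoxin receptors split between macrophages and neutrophils. C3ar1 was at 247 to 346 CPM in macrophages (median 278), 97.0 to 297 in monocytes (median 116) and 13.4 to 37.4 in neutrophils (median 22.0), while dendritic cells (median 7.06) lay below T cells (median 10.3) in 4 of 6 libraries. C5ar1 was at 530 to 807 CPM in neutrophils (median 704), 179 to 264 in macrophages (median 226) and 90.7 to 281 in monocytes (median 106), with dendritic cells (median 9.28) and T cells (median 9.79) overlapping. Neutrophil C5ar1 was 37.3 to 75.5 times the T cell level of the same library. Against macrophages, C5ar1 was higher in neutrophils (2.03, SE 0.19, edgeR adjusted p = 4.03e-09) and lower in monocytes (-0.71, SE 0.18, adjusted p = 0.00304) and dendritic cells (-4.77). C3ar1 was lower in all, at -0.96 in monocytes, -3.32 in neutrophils and -5.00 in dendritic cells. Non-classical monocytes had 3.82 to 22.6 CPM of C3ar1, near the T cell level (7.19 to 12.8), but 57.9 to 258 of C5ar1.

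**Figure D3:**
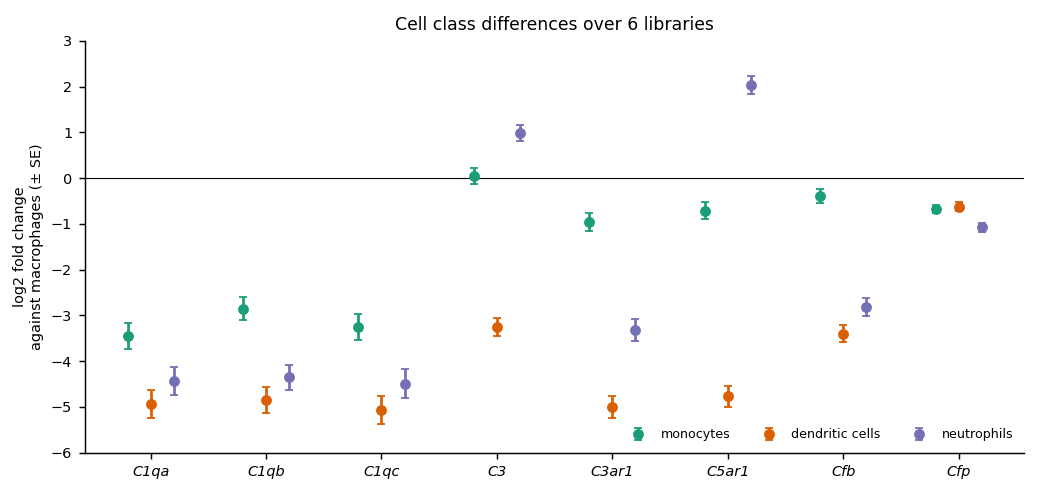
Log2 fold change against macrophages for each gene in monocytes, dendritic cells and neutrophils, with bars of 1 approximate standard error (edgeR, 6 libraries). Only C3 (0.99) and C5ar1 (2.03) in neutrophils are higher than in macrophages past the threshold.

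Macrophages were also split by whether they had a UMI of Spp1, the osteopontin gene of many tumor macrophages. The cells with Spp1 were the deeper in every library, with a median of 14522 against 12527 UMIs in control. The part of depth in the split was not tested. C3 was lower in the cells with Spp1 in 6 of 6 libraries, by a log2 ratio of -0.69 to -0.043 (median -0.36), and C3ar1 was higher in 6 of 6, by 0.11 to 0.39 (median 0.27). The C1q genes were higher with Spp1 in 4 of 6 libraries, C5ar1 in 4, Cfp in 3 and Cfb in 2. The other genes thus showed no common direction.

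Only 44 cells passed the tumor cell gate (keratins, Epcam and Wfdc2), none of them from the control library, so no test was made. Pooled over the libraries they held 1032241 UMIs, of which C3 had 374 (362 CPM, exact Poisson 95% interval 327 to 401), found in 25 of the 44 cells. Cfb had 68 UMIs (65.9 CPM, 51.2 to 83.5) in 19 cells. The other 6 genes had 2 to 6 UMIs each in the pool. These intervals cover counting error in the pool and not the spread between libraries. C3 had 124 of 186493 UMIs with 2FF and 204 of 538415 with 2FF plus anti-PD-L1. It had 24 of 143534 with 2DG, 5 of 47583 with anti-PD-L1 and 17 of 116216 with 2DG plus anti-PD-L1. Cfb had 25, 23, 2, 15 and 3 UMIs in the same order.

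Of the wider complement system, 41 genes in 4 lists were looked up, and 9 of them reached 50 CPM in a class. Among the 13 classical and lectin pathway proteins these were C4b, a C4 gene whose reads can be split with its near copy C4a, at 32.6 to 65.8 CPM in macrophages, and the ficolin gene Fcnb, at 2.54 to 158 CPM in neutrophils. None of the 8 alternative and terminal proteins did, and C6 and C9 had medians of 4.14 and 3.07 CPM in macrophages. Of the 12 regulators, Cr1l (Crry) was at 51.5 to 64.2 CPM in macrophages. Its ranges in the other classes overlapped this, at 47.9 to 65.0 CPM in monocytes, 42.4 to 68.8 in neutrophils and 37.9 to 53.1 in dendritic cells. Of the 8 receptors, Itgam (the CD11b chain of complement receptor 3) was at 558 to 940 CPM in neutrophils, its partner Itgb2 at 257 to 354 in monocytes and Itgax (CD11c) at 103 to 147 in dendritic cells, followed by Cd93 and C1qbp. C1s1, C2 and Masp2, which encode proteases of the early cascade, had medians of 0.562, 1.45 and 0.363 CPM in macrophages, whereas C1ra, the gene of the C1r protease, was at 12.8 to 24.1 CPM (median 19.2).

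Against macrophages, the classical and lectin list had 1 gene higher and 3 lower in monocytes, 0 and 3 in dendritic cells and 1 and 3 in neutrophils, of 4 tested. Over all genes, 50.4% were called in monocytes, 54.9% in dendritic cells and 74.1% in neutrophils. Calls within such short lists are therefore not rare, here and for the lists below. C4b was lower in all 3 classes, at -1.96, -5.59 and -3.26, as were C1ra and Fcna, while Fcnb was higher in monocytes (5.47) and neutrophils (9.20). The alternative and terminal list had 1 higher and 2 lower of 3 tested in each class, Hc (the C5 gene) higher and C6 and C9 lower. Hc had a median of only 3.64 CPM in neutrophils, and its call in monocytes (1.79) was lost without TMM scaling. Of the 5 regulators tested none was called in monocytes, and in neutrophils Cd55 (5.83), Cd46 (2.81) and Cr1l were higher, of which Cr1l was at 0.47 and, without TMM scaling, at -0.025. In dendritic cells Clu (clusterin) was higher (4.47). Both Cd55 and Clu were low throughout. Cd55 had medians of 7.93 CPM in neutrophils and 0.121 in macrophages, and Clu 8.49 in dendritic cells and 0.344 in macrophages. Of the 6 receptors tested, 2 were higher and 2 lower in monocytes, 1 and 4 in dendritic cells and 3 and 3 in neutrophils. Itgam was higher in neutrophils (1.07) and lower in dendritic cells (-2.42), and its value of 0.42 in monocytes lost its call without TMM scaling. C5ar2, the second C5a receptor, followed C5ar1 in being higher in neutrophils (1.78) and lower in dendritic cells (-4.52). Itgb2 in neutrophils was at 0.45 with TMM scaling and -0.020 without. The medians over the tested genes of the 4 lists in neutrophils were -2.94, -2.82, 0.67 and 0.036, against -0.13 over all genes.

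By the Pearson correlation of log2(CPM + 5) over the 24 class and library sums (4 classes in 6 libraries), the C1q genes were nearly interchangeable, with r of at least 0.99 among them. With the 8 members left out of the ranking, C1qa was most like Ntpcr (0.98), the gate marker Ms4a7 (0.97) and Camk1 (0.96). C3 was most like Lst1, Ikbke and Dok3 (0.96 each), C3ar1 like Maf (0.98), Ecm1 (0.98) and Ccl7 (0.97), and C5ar1 like Ninj1 (0.98), Dmxl2 and Bst1 (0.97 each). Cfb was most like Dennd1a (0.96), Rgl1 (0.95) and the Fc receptor gene Fcgr1 (0.94), and Cfp like Lap3 (0.96), 0610012G03Rik and Calr (0.95 each). Among 5299 genes, members aside, these had the highest values for each, and since the sums of a class share their cell type the r describes mainly the order of the classes.

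The study asked what each inhibitor and the antibody do to the tumor's immune cells. With 1 library per treatment there is no test, and a change is given as the log2 ratio of CPM + 5 between libraries, called when past 2-fold. C3 and Cfb were lowest in the control library and C3ar1 was highest there, in every class with enough cells except C3 in dendritic cells. All 5 ratios to control share the same control mouse, so a trait of that mouse and an effect of treatment cannot be told apart.

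C3 in macrophages was at 122 CPM in control (counting interval 114 to 130), 255 with 2DG, 343 with 2FF, 336 with anti-PD-L1, 330 with 2DG plus anti-PD-L1 and 261 with 2FF plus anti-PD-L1. The log2 ratios to control were 1.04 to 1.46, all past 2-fold. In monocytes C3 was at 130 CPM in control against 252 to 336, with log2 ratios of 0.93 to 1.34, and in neutrophils at 217 against 363 to 485, with 0.73 to 1.14. In dendritic cells, near background, it was higher than control in 3 of 5.

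Cfb in macrophages was at 65.9 CPM in control (60.3 to 71.9), 106 with 2DG, 155 with 2FF, 129 with anti-PD-L1, 208 with 2DG plus anti-PD-L1 and 155 with 2FF plus anti-PD-L1. In monocytes it was at 36.4, 64.1, 116, 106, 129 and 135 CPM in the same order, with log2 ratios to control of 0.74 to 1.76, of which 4 of 5 were past 2-fold. Control was the lowest library in all 4 classes.

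C3ar1 in monocytes went the other way, at 297 CPM in control (291 to 303), 97.0 with 2DG, 116 with 2FF, 115 with anti-PD-L1, 97.7 with 2DG plus anti-PD-L1 and 160 with 2FF plus anti-PD-L1. C5ar1 in monocytes was at 281 CPM in control (275 to 287) and at 91.2, 141, 90.7, 92.2 and 120 in the treated libraries. Both receptors were past 2-fold lower in 4 of 5, with log2 ratios of -1.57 to -0.87 for C3ar1 and -1.58 to -0.97 for C5ar1. In macrophages the same receptors were lower in 5 of 5 but by less, at -0.48 to -0.21 and -0.55 to -0.053.

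The summed level of the neutrophil markers was also highest in the control library in monocytes and macrophages. It was 1247 CPM in control monocytes against 238 to 479 in the treated libraries, and in macrophages 436 against 73.5 to 87.4. In the library order given above for C3ar1, the treated monocytes had 479, 238, 282, 372 and 463 CPM of these markers. In the same order C3ar1 was at 97.0, 116, 115, 97.7 and 160 CPM, and C5ar1 at 91.2, 141, 90.7, 92.2 and 120. The control neutrophils themselves held 37.4 CPM of C3ar1 and 791 CPM of C5ar1. The part of neutrophil RNA in the values of either receptor was not tested. In classical monocytes alone C3ar1 was at 302 CPM in control against 111 to 172 and C5ar1 at 281 against 93.4 to 142, whereas in non-classical monocytes C3ar1 in control (10.7 CPM) lay within the treated range of 3.82 to 22.6 and C5ar1 (258 CPM) above that of 57.9 to 128. In monocytes with no macrophage marker the values were 159 against 5.81 to 43.0 and 204 against 49.0 to 106.

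C1q in macrophages stayed within 2-fold of control, with log2 ratios of -0.17 to 0.25 for C1qa, -0.095 to 0.38 for C1qb and -0.074 to 0.15 for C1qc. In monocytes C1qa was at 167 CPM in control, 198 with 2DG, 342 with 2FF, 193 with anti-PD-L1, 280 with 2DG plus anti-PD-L1 and 195 with 2FF plus anti-PD-L1, so that the 2FF library alone was past 2-fold (1.02). Its T cells also had the highest C1qa of the 6 libraries, 117 CPM against 22.2 in control, and the part of free RNA was not tested. Cfp was higher than control in 5 of 5 libraries in macrophages (0.14 to 0.49), dendritic cells (0.12 to 0.26) and neutrophils (0.44 to 0.75), and in 1 of 5 in monocytes.

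**Figure D4:**
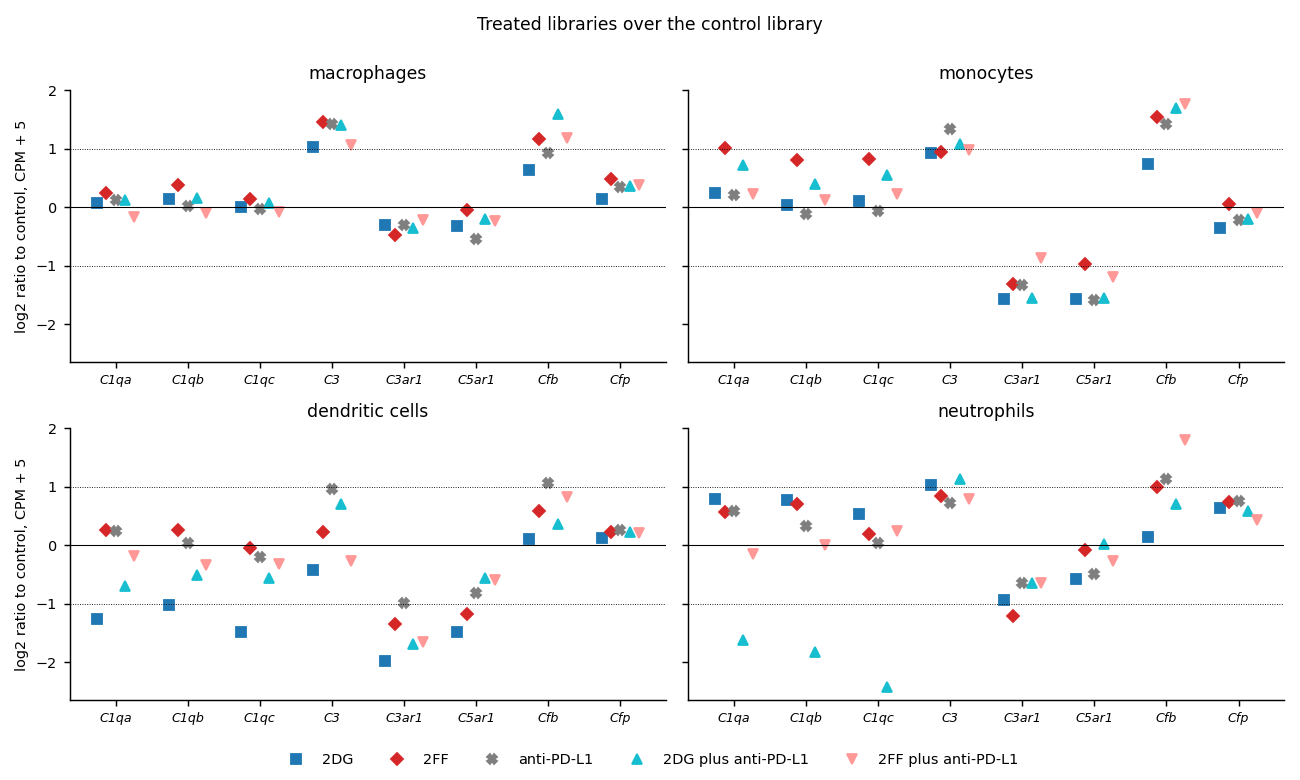
Log2 ratio of CPM + 5 of each treated library over the control library for the 8 genes in 4 classes, 1 point per treated library, with lines at 2-fold. In macrophages, monocytes and neutrophils C3 and Cfb lie above 0 and C3ar1 below 0 in 5 of 5 libraries, all against the same control library.

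The share of all genes past 2-fold gives the background for the members' counts. In macrophages, 2.96% of genes were past 2-fold with 2DG, 4.47% with 2FF, 2.84% with anti-PD-L1, 5.97% with 2DG plus anti-PD-L1 and 3.84% with 2FF plus anti-PD-L1, and of the members 1, 2, 1, 2 and 2 were, all higher. In monocytes the background was 6.45%, 5.69%, 5.51%, 7.01% and 4.52%, and 2, 3, 4, 4 and 2 members were past 2-fold, of which 0, 2, 2, 2 and 1 were higher. In dendritic cells it was 2.02%, 3.46%, 2.64%, 6.98% and 5.95%, with 5, 2, 1, 1 and 1 members, all lower except the 1 with anti-PD-L1. The 5 with 2DG were C1qa (-1.27), C1qb (-1.01), C1qc (-1.48), C3ar1 (-1.97) and C5ar1 (-1.48), and of these 5 only C1qb had more CPM in dendritic cells than in the T cells of that library (52.3 against 48.6). In neutrophils the background was 11.3%, 11.2%, 7.99%, 9.75% and 6.75%, with 1, 2, 1, 4 and 1 members past 2-fold, so that there a count of 1 of 8 is near the background. The median ratio of the members was -0.084 to 0.31 in macrophages, -0.096 to 0.82 in monocytes, -1.14 to 0.23 in dendritic cells and -0.30 to 0.64 in neutrophils. Over all genes tested it stayed between -0.11 and 0.21. The 20 genes of a fixed interferon-gamma response list, given beside Cfb and C3, had medians over control of 1.01 to 1.24 in macrophages, 1.13 to 1.62 in monocytes, 0.27 to 0.68 in dendritic cells and 1.15 to 1.98 in neutrophils, and their part in the complement values was not tested.

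Few of the genes were past 2-fold when an inhibitor was added to anti-PD-L1. Against the anti-PD-L1 library, no member was past 2-fold in macrophages with 2DG (background 1.3%) or 2FF (0.633%), or in monocytes with 2DG (0.416%) or 2FF (0.602%). In dendritic cells 0 members passed with 2DG (1.99%) and 1 with 2FF (1.42%), which was C3, at 18.4 against 50.1 CPM. In neutrophils 2DG plus anti-PD-L1 had 3 of the 6 members tested past 2-fold (4.04%), the C1q genes at -2.21, -2.15 and -2.48, and 2FF plus anti-PD-L1 none (2.48%). Those neutrophil values rest on 21, 18 and 5 UMIs in 279 cells, against 132, 111 and 57 in 293 cells, and are at or below the T cell background of that library (62.8 CPM for C1qa).

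Anti-PD-L1 was given alone, with 2DG and with 2FF, which makes 3 pairs of libraries with and without it. edgeR's quasi-likelihood test with the inhibitor as a block called 0% of 12197 genes in macrophages, 0% of 13257 in monocytes, 0.00873% of 11455 in dendritic cells (1 gene, Spp1) and 0% of 8244 in neutrophils, and none of the 8 complement genes. At an unadjusted p under 0.05 it had 526, 549, 1423 and 119 genes, and DESeq2 called 14, 20, 134 and 0. Without the pair that holds the control library edgeR called 4, 88, 218 and 0 genes, again none of the 8.

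Among the members Cfb alone had an unadjusted p under 0.05 in each of the 4 classes. Of all genes 4.31% were under it in macrophages, 4.14% in monocytes, 12.4% in dendritic cells and 1.44% in neutrophils, so that 1 of 8 members is at the background in dendritic cells. Its log2 fold change was 0.68 in macrophages (SE 0.22, edgeR adjusted p = 0.984), 0.92 in monocytes (SE 0.23, adjusted p = 0.999), 0.76 in dendritic cells (SE 0.26, adjusted p = 0.283) and 1.22 in neutrophils (SE 0.36, adjusted p = 0.9996), so none of these passed the correction. Cfb was higher with the antibody in 3 of 3 pairs in each class, and without the pair that holds the control library its log2 fold changes were 0.54, 0.70, 0.39 and 1.04. Its counting interval lay above that of T cells in only 3 of 6 libraries in dendritic cells and 2 of 6 in neutrophils. The neutrophil pairs rest on few Cfb UMIs, 95 in control, 10 with 2DG and 29 with 2FF. Their partners with anti-PD-L1 had 19, 11 and 50. In monocytes the pair ratios were 1.43 without inhibitor, 0.96 with 2DG and 0.21 with 2FF, and in macrophages 0.92, 0.95 and 0.0024, so the 2FF pair was the smallest in both. T cells, near background, had 0.30, 0.62 and 0.16. C3 in monocytes had pair ratios of 1.34, 0.16 and 0.032 and a log2 fold change of 0.52 (SE 0.25, edgeR adjusted p = 0.999), so the difference came mostly from the pair that holds the control library. The interferon-gamma response list had median log2 fold changes of 0.47, 0.54, 0.25 and 0.32 in macrophages, monocytes, dendritic cells and neutrophils, with 20, 20, 17 and 17 of its 20 genes above 0, against -0.0058, -0.0043, -0.0074 and -0.016 over all genes.

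**Figure D5:**
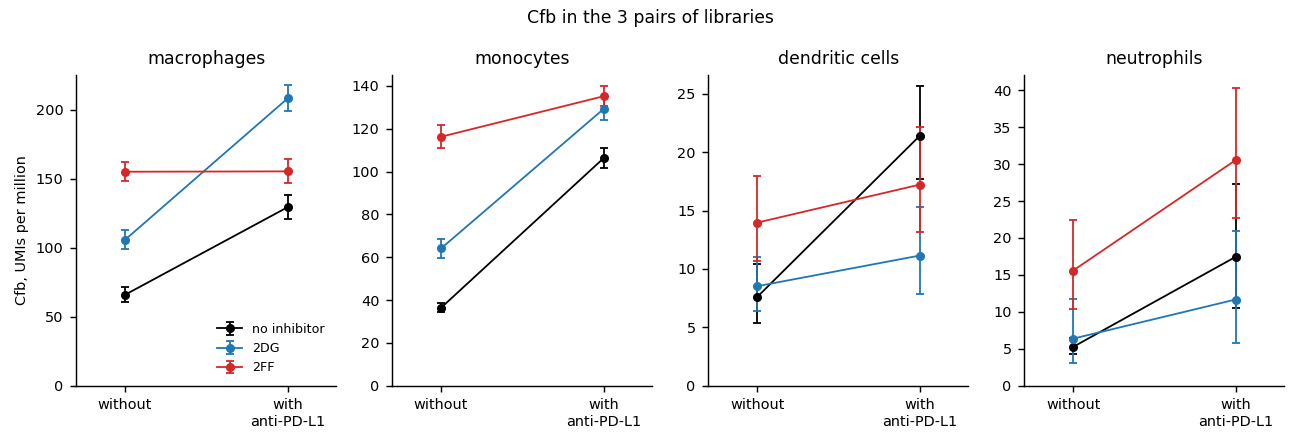
Cfb in CPM (linear axis from 0, bars exact Poisson 95% intervals) in libraries without and with anti-PD-L1, a line joining each pair (no inhibitor, 2DG, 2FF), by cell class. All lines rise, from 36.4 to 106 CPM in the monocytes of the pair without inhibitor and least in the macrophages of the 2FF pair (155.2 to 155.4).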

How the data were processed

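Single-cell RNA was measured in 6 libraries of 1 mouse each, grouped by their treatment labels. The values the authors deposited are raw counts of UMIs for 32285 genes in each cell, not normalized, made with Cell Ranger on mm10. The file header and the study's methods give version 7.0.0, and the submitters' processing notes 3.1.0. The study's limits on cells (at least 250 genes, at most 5% mitochondrial UMIs) had not been applied to these files and were set here. Doublets were not called. An alternative left out cells with 2 or more markers of T, B, plasma or tumor cells.

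A cell took the class whose marker list had the highest share of genes with a UMI, given at least 3 such markers and no tie between classes, and 6328 cells had no class and 2267 a tie. Sums of counts over a class in a library were turned into CPM, and sums of under 20 cells stayed out of tests. Classes were compared with edgeR 4.0.16 in R 4.3.3 (filterByExpr, TMM, quasi-likelihood test, library as a block), and anti-PD-L1 with the inhibitor as a block, each class in a fit of its own, both with Benjamini-Hochberg adjustment. The inhibitor pairs come from the treatment labels, and the replicate numbers, 1 for each library, pair nothing. Treatments were compared as log2 ratios of CPM + 5, for genes that had 50 UMIs or more in the sum of both libraries, which understates the change of low genes. Intervals are exact Poisson at 95% and cover counting error only. DESeq2 1.42.0, other filters and limits, no TMM, and leaving out each library or pair were alternatives. The test scripts were tested on simulated data. Sums and figures used Python 3.11.15 with NumPy 2.4.6, pandas 2.3.3, SciPy 1.17.1 and Matplotlib 3.10.9. Coordinates are from GENCODE M21 on GRCm38.

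The members and gene lists were chosen with earlier results of these data known. Named are the 8 members, genes of the other complement lists with at least 50 CPM on average in a class or past a test's threshold, and for each of C1qa, C3, C3ar1, C5ar1, Cfb and Cfp the 3 genes of highest Pearson correlation. Genes given beside these for a check of a class, C1ra, C1s1, C2 and Masp2 as levels, and Spp1, were chosen after values were seen. A list of 20 dissociation and stress genes was also read, with median log2 ratios to control of -0.49 to 0.12 in macrophages and -0.12 to 0.16 in monocytes, and below 0 in 5 of 5 libraries in dendritic cells (-0.48 to -0.015) and neutrophils (-0.55 to -0.14). Its part in the complement values was not tested. Some genes that this rule names are not reported here.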

Additional observations from a re-analysis of the deposited data

Results flagged for a closer look

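Cells that met no marker gate, 904 to 1346 per library with median depths of 1769 to 4301 UMIs, stood outside the comparisons, and 6 complement genes were higher there in each of the 5 treated libraries than in the control library. The median of the treated libraries was 628 CPM for C1qa against 270 in control, 703 for C1qb against 295, and 391 for C1qc against 182. For C3 it was 208 CPM against 106, for Cfb 106 against 26.6 and for Cfp 224 against 128. These C1q levels lie between those of macrophages and monocytes. C3ar1 and C5ar1 were at 145 and 170 CPM in the control library, each above all treated libraries. Cells of no class were shallowest in control, at a median of 1768.5 UMIs against 2746 to 4301 in the treated libraries. The share of all genes higher than control was not computed for them, so the count of 6 genes has no background. What these cells are, and the part of depth in their values, was not tested.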

How the results depend on the processing

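Of the values answering a comparison, 218 were the same under an alternative, 40 moved and none changed direction. Of those for the single members, 603 were the same, 4 lost and 1 gained a call, and none of them changed direction past the threshold. The genes of the other complement lists were not in these counts. Among them, without TMM scaling, Hc and Itgam lost their calls in monocytes, and C1qbp gained a call in dendritic cells. Cr1l and Itgb2 lost theirs in neutrophils with a change of sign, to -0.025 and -0.020. Thinning to 1000 and 2000 UMIs lowered the shares of cells with a UMI to 71.0% and 76.9% for C1qa, 74.5% and 81.8% for C1qb, 63.8% and 75.5% for C1qc, 23.6% and 39.8% for C3ar1, 12.2% and 21.2% for Cfb and 26.6% and 43.7% for Cfp in macrophages, and to 27.2% and 41.9% for C3 and 45.9% and 65.4% for C5ar1 in neutrophils. With at least 4 markers C1qc in macrophages was at 1763 CPM, and the shares were 86.7% for C1qc, 87.0% for C3ar1 and 86.1% for Cfp. Genes called for anti-PD-L1 in macrophages were 1 with at least 4 markers, 14 with DESeq2, 29 without a filter and 0 to 4 leaving out a pair (4 without the pair that holds the control library). In monocytes they were 20 with DESeq2 and 0 to 88 leaving out a pair (88 without the control pair). In dendritic cells they were 7 at a mitochondrial limit of 10%, 58 with at least 4 markers, 5 with other-class cells left out, 134 with DESeq2, 683 without a filter (C3 among them, 0.67, edgeR adjusted p = 0.0284), 23 without TMM and 0 to 218 leaving out a pair (0 without the 2DG, 4 without the 2FF and 218 without the control pair), and 0 with no replicate block, where the inhibitors are not paired. In neutrophils they were 15 without a filter and 0 to 1 leaving out a pair (1 without the 2FF pair). Against anti-PD-L1, 2 dendritic cell members were past 2-fold with other-class cells left out, in place of 1. Cfb in dendritic cells and neutrophils and C3ar1 and C5ar1 in dendritic cells lay near the T cell background, and the part of depth in this was not tested.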
